A study of Bos taurus with 27 samples.

Results

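The mid-sized embryos described here are 9 of the 27 cattle (Bos taurus) embryos of the series. They were taken by their labels, as the embryos classed short whose title carries a size number from 4.4 to 8. The window itself was chosen with earlier results of these data known. Of these, 5 came from dams on a maternal omega-3 diet (embryos 2, 3, 8, 15 and 17, with size numbers 8, 5.5, 4.4, 6 and 6.4) and 4 from dams on a maternal omega-6 diet (embryos 23, 24, 26 and 28, with size numbers 5, 4.5, 7.7 and 4.9). All 9 were whole embryos collected on day 15 of pregnancy, each sequenced as 1 poly(A) RNA library, and the labels give no further treatment for either diet group. The labels give no unit for the size number, no composition of the diets, no breed and no dam, so several embryos may share a dam and each p-value measures only the spread between these embryos. A sex letter, m or f, also stands in each title: embryos 2, 15, 23 and 24 carry m and the other 5 carry f. The 18 embryos outside the size window (4 small omega-3, 7 small omega-6, 1 short omega-3 of size 9.5 and 6 long omega-3) were used only where named.

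The cattle embryo floats free in the uterus before it attaches, and its trophoblast, the layer that faces the uterus, grows into a long filament during that time. The elongating trophoblast secretes interferon tau, the signal by which the dam recognises the pregnancy, and takes up lipids and other nutrients from the uterine fluid. Omega-3 and omega-6 fatty acids are polyunsaturated lipids that the dam must take from feed. They enter membranes, serve as precursors of prostaglandins, and bind nuclear receptors of the PPAR family, which act on lipid genes. Gene expression in embryos changes strongly as they elongate, so a diet comparison depends on whether the embryos set side by side are of equal size, which is the reason for the size window.

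The files name genes by Ensembl identifier only and do not pair identifiers with symbols, and of 19994 identifiers 0 were found in the gene table at hand (RefSeq, assembly ARS-UCD2.0). No gene could therefore be named, grouped by pathway or cell type, or shown by its sequence, and the labelled tissue could not be checked against marker genes. Identifiers are printed for 4 genes, and the most counted genes are given by rank. The letters could be checked. In 17 embryos outside the size window, leaving out embryo 7, whose transcripts go against its letter, 12 genes were higher in m by at least 2-fold (edgeR, adjusted p below 0.05). Their summed level was 241 to 321 CPM (counts scaled to a common library size) in the 4 mid-sized m embryos and 20.7 to 83.5 CPM in the 5 f embryos, so each letter fitted its library. Total counts ran from 21209069 to 29868584 per embryo. No 2 of the 9 libraries were copies: the chi-square of their counts per degree of freedom was at least 16.9 over the 36 pairs.

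The size window was applied to both diets, so the sizes within it are given as a description, with no test. The mean log2 size number was 2.57 ± 0.31 (SD, n = 5) in omega-3 and 2.43 ± 0.35 (n = 4) in omega-6, a difference of 0.14 doublings. Omega-6 held 3 embryos at 4.5 to 5 and 1 at 7.7, whereas omega-3 was spread from 4.4 to 8. Depth, the share taken by the 10 most counted genes of each embryo and the number of genes detected at equal depth were compared by two-sided exact permutation, for which the smallest p that the arrangements of 9 embryos allow is 0.00794, and none of the 3 passed. Total counts averaged 26790000 ± 2775000 in omega-3 and 24360000 ± 2678000 in omega-6 (exact permutation p = 0.214, adjusted over 3 measures 0.321). The share of the 10 most counted genes averaged 16.02% ± 0.84 and 16.37% ± 1.42 (exact permutation p = 0.619, adjusted 0.619), and genes detected at equal depth ran from 13814 to 13963 in omega-3 and from 13849 to 14027 in omega-6 (exact permutation p = 0.214, adjusted 0.321). These differences depended on single embryos. The difference in total counts, omega-3 minus omega-6, was 2430000 and fell to 1380000 without embryo 24, and that in genes detected was -65 and moved to -103 without embryo 26 (exact permutation p = 0.0536) and to -43.2 without embryo 23.

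Equal size numbers need not mean equal progress of the transcripts that follow size. To read that progress in embryos that had no part in choosing the genes, genes were tested for a slope on log2 size in the 18 other embryos, with diet and letter in the model. There 2287 of 11665 genes passed (19.6%; edgeR, adjusted p below 0.05), of which 1191 rose and 1096 fell with size. The mean log2 CPM of the rising genes minus that of the falling genes was taken as a size score, and it changed by 0.577 per doubling of size in those 18 embryos. Embryo 7 is one of the 18 and entered this fit with the letter of its label. In the mid-sized omega-3 embryos the score was 0.20 in embryo 2, 0.28 in embryo 3, 0.12 in embryo 8, 0.00 in embryo 15 and -0.30 in embryo 17. In omega-6 it was -0.23 in embryo 23, -0.61 in embryo 24, 0.33 in embryo 26 and -0.40 in embryo 28. The groups overlapped: the highest score of all belonged to omega-6 embryo 26, one of the 2 largest, but the other 3 omega-6 embryos lay below 4 of the 5 omega-3 embryos.

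**Figure D1:**
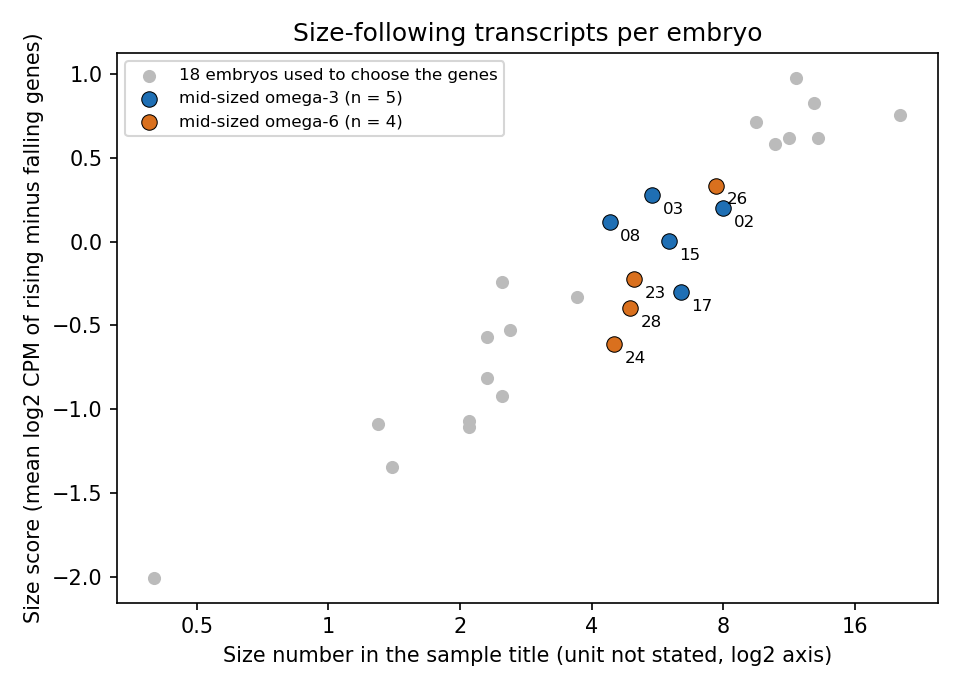
Size score of each embryo (vertical axis, mean log2 CPM of genes rising with size minus that of genes falling with size) against the size number in its title (horizontal log2 axis, unit not stated). Grey points are the 18 embryos in which the genes were chosen, blue points the 5 mid-sized omega-3 and orange points the 4 mid-sized omega-6 embryos, with their embryo numbers. The mid-sized embryos lie between -0.61 and 0.33, and 3 of the 4 omega-6 embryos lie below 4 of the 5 omega-3 embryos.

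The mean score was 0.06 ± 0.23 (SD, n = 5) in omega-3 and -0.22 ± 0.40 (n = 4) in omega-6, a difference of 0.28 that did not pass (exact permutation test, two-sided, p = 0.222). On the scale of the other embryos this difference equals 0.49 doublings of size, against 0.14 doublings in the size numbers themselves. That scale is rough, since the genes were chosen for their slope in the same 18 embryos, which favours a steep line. The line held no term for diet, and the embryos there above size number 3.7 were all omega-3. A difference of 0.08 in score is what the size numbers alone would give on the line through the other 18 embryos. After subtracting that line from each embryo, the diets differed by 0.20 (exact permutation p = 0.302), and without omega-6 embryo 26 the unadjusted difference was 0.47 (exact permutation p = 0.0536). With the genes chosen again without embryo 7 (1059 rising and 1002 falling) the diets differed by 0.29 (exact permutation p = 0.214). Within the 9 embryos the score rose with log2 size at Pearson r = 0.563 (permutation p = 0.117, adjusted over 4 measures 0.387) and Spearman rho = 0.517 (permutation p = 0.165, adjusted 0.466; n = 9). Without embryos 2 and 26, the farthest from the median size, r was 0.205. The sizes then ran only from 4.4 to 6.4, and a narrower range lowers r in itself. The drop therefore cannot show how far the relation rests on those embryos.

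The 9 embryos did not sort by diet along their main axes of variation. The first principal component of log2 CPM held 24.5% of the variance and ran from omega-6 embryo 26 at -29.9 to omega-6 embryo 24 at 32.1, with all 5 omega-3 embryos between them. The second (15.2%) was set mostly by omega-6 embryos 28 (-35.5) and 23 (19.9), and the next (14.4%) by omega-3 embryos 15 (-32.4) and 17 (23.4). The diet means differed by -8.99, 8.65 and -3.24 on the 3 components (exact permutation p = 0.5, 0.516 and 0.746, each adjusted to 0.746). Correlations of log2 CPM between embryos across genes ran from 0.969 to 0.988 and averaged 0.98 both within and between diets (exact one-sided permutation p = 0.349 for a greater distance between diets). Omega-3 embryos correlated with each other at 0.982 on average and omega-6 embryos at 0.977, and the median per-gene SD of log2 CPM was 0.16 in omega-3 and 0.20 in omega-6.

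**Figure D2:**
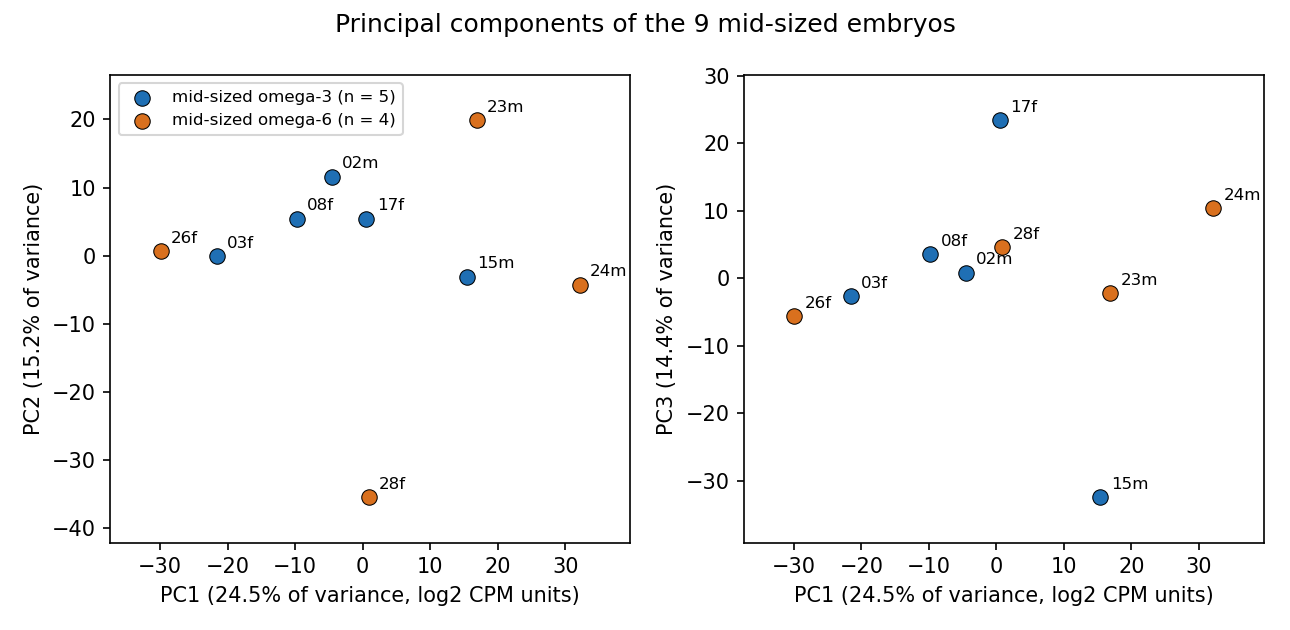
Principal components PC1 against PC2 (left) and PC1 against PC3 (right) of log2 CPM over 11582 genes in the 9 mid-sized embryos. Axes are in log2 CPM units with the share of variance in the label, blue marks omega-3 (n = 5) and orange omega-6 (n = 4), and each point carries its embryo number and letter. The omega-6 embryos hold both ends of the first component (-29.9 and 32.1), with all omega-3 embryos between them.

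Diet was then tested gene by gene. Between the 5 omega-3 and the 4 omega-6 embryos, edgeR's quasi-likelihood test with the letter in the model called 0 of 11582 genes (0%) at an adjusted p below 0.05. The smallest adjusted p was 0.997. At an unadjusted p below 0.05 there were 355 genes (3.07% of those tested), 191 higher (1.65%) and 164 lower (1.42%) in omega-3. DESeq2 and limma-voom also called 0 genes, with 358 (3.09%) and 548 (4.73%) at an unadjusted p below 0.05. For 109 genes (0.941% of those tested) the diet groups did not overlap at all, 52 (0.449%) with every omega-3 embryo higher and 57 (0.492%) with every omega-3 embryo lower. By the same fit, 18 genes (0.155%) passed between the letters, with 7 of them toward m and 11 toward f; 522 (4.51%) had an unadjusted p below 0.05.

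A count of 0 leaves room for differences too small for 9 embryos, so each gene was asked how large a diet difference its data still allow. The 95% confidence interval of the fold change lay wholly within 2-fold either way for 10412 of the 11582 tested genes (89.9%). That is 52.1% of all 19994 identifiers, because 8412 had too few counts to be tested, 3975 of them with no count in any of the 9 embryos. The tested genes held 99.96% of all counts. Intervals lay within 1.5-fold for 8374 genes (72.3%) and within 4-fold for 11434 (98.7%). The median half-width of an interval was 0.28 on the log2 scale, or 1.21-fold, and the median size of the estimated log2 fold change was 0.09. These intervals hold for 1 gene at a time. With intervals widened to hold for all tested genes at once, 4281 genes (37%) were bounded within 2-fold.

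How tightly a gene could be bounded followed its level. Of 1711 genes with a mean of at least 100 CPM, 99.1% were bounded within 2-fold, as were 98.6% of 5856 genes at 10 to 100 CPM. At 1 to 10 CPM the share was 84% of 3134 genes, and under 1 CPM it was 35.1% of 881 genes. In this last class 0.681% were bounded within 1.5-fold, with a median half-width of 1.78-fold. The 1170 genes not bounded within 2-fold were thus mostly low in level: 572 lay under 1 CPM and 503 at 1 to 10 CPM. For 1078 of them the estimate itself lay inside 2-fold and only the interval reached past it, whereas 50 had an estimate at least 2-fold higher and 42 at least 2-fold lower in omega-3. Of the 355 genes at an unadjusted p below 0.05, 219 were bounded within 2-fold.

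**Figure D3:**
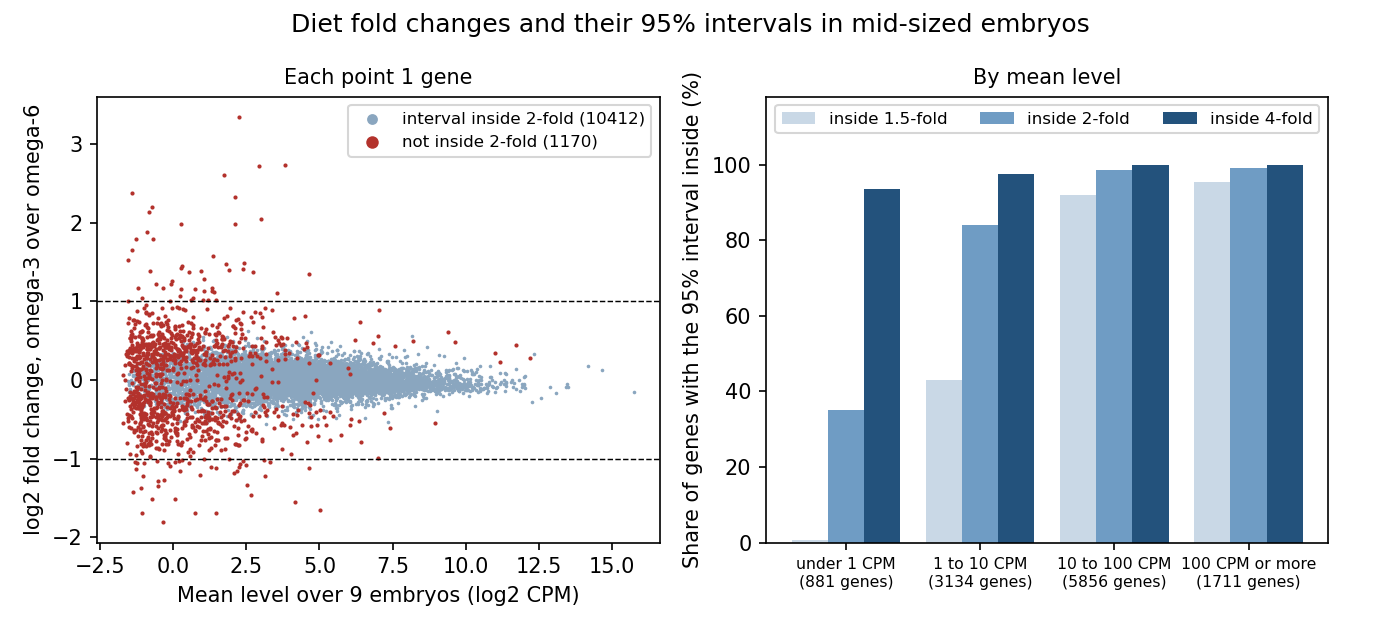
Left, log2 fold change of omega-3 over omega-6 for each of 11582 genes against its mean level over the 9 embryos (log2 CPM), in blue where the 95% interval lies within 2-fold (dashed lines) and in red where it does not. Right, the percentage of genes in each class of mean level whose interval lies within 1.5-fold, 2-fold and 4-fold. The share within 2-fold rises from 35.1% under 1 CPM to 99.1% at 100 CPM or more.

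Genes that follow size were bounded less often. Of the 2256 tested genes that followed size in the 18 other embryos, 84.7% were bounded within 2-fold, against 91.2% of the 9326 that were not called there. Where the slope was at least 0.5 per doubling in either direction, 96 of 295 genes (32.5%) were bounded, with a median half-width of 1.77-fold. Most of these steep genes were low in level: 73 of the 295 had a mean of at least 10 CPM, and 42 of those were bounded. Among all tested genes 98.6% were bounded at 10 to 100 CPM and 99.1% at 100 CPM or more. How far level set the lower share of the steep genes was not tested. At 10 CPM or more 95 genes were not bounded, and 48 of them had followed size in the other embryos. Of all 11582 tested genes 2256 had done so, and the share among all genes at 10 CPM or more was not counted.

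The diet estimates, none of which passed on its own, leaned along the size axis. Of 1182 genes that rose with size in the other 18 embryos, 958 (81%) had a higher estimate in omega-3, with a median log2 fold change of 0.13. Of 1074 genes that fell with size, 853 (79.4%) had a lower estimate in omega-3, with a median of -0.09. Over all genes 50.3% were higher in omega-3, with a median of 0.00. Across 11508 genes the diet fold change and the size slope, which came from different embryos, correlated at r = 0.334. These genes are read in the same 9 embryos and are not independent of each other, so the counts describe these embryos, and the size score above is the test over embryos, which did not pass. With log2 size in the diet model the values were 76.6%, 72.6% and r = 0.257. Leaving out each of the 9 embryos in turn, r ran from 0.163 without embryo 28 to 0.507 without embryo 26, and the share of rising genes with a higher estimate in omega-3 from 69.2% to 88.9%. The part that remaining differences in progress of elongation have in the diet estimates was not tested.

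The most counted genes, which weigh most in each library, showed no called difference. All 10 were bounded within 2-fold, all overlapped between diets, and each had an edgeR adjusted p of 0.997. The most counted gene took 5.51% of counts and measured 47348, 46790, 51122, 62764 and 54294 CPM in omega-3 embryos 2, 3, 8, 15 and 17. In omega-6 embryos 23, 24, 26 and 28 it measured 58996, 61331, 57517 and 56092 CPM. Omega-6 embryos stood in a narrow band, which 1 omega-3 embryo exceeded and the other 4 did not reach. The log2 difference was -0.15 ± 0.10 (SE), with a 95% interval from 0.779-fold to 1.05-fold. The interval of the gene ranked 9, which had the lowest estimate of the 10 (log2 difference -0.23 ± 0.13, SE), ran from 0.704-fold to 1.04-fold.

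The intervals of the 10 differed in width, and the widest were those of the genes ranked 3 and 10. The gene ranked 3, which rose with size in the other embryos by 0.97 per doubling, measured 19460, 22422, 18468, 23553 and 13713 CPM in omega-3 embryos 2, 3, 8, 15 and 17. In omega-6 embryos 23, 24, 26 and 28 it measured 16746, 6795, 31703 and 15679 CPM. Omega-6 thus held both the highest and the lowest value, in the embryos that also held the highest and the lowest size score. Its log2 difference was 0.17 ± 0.34 (SE), with an interval from 0.674-fold to 1.89-fold. The gene ranked 10, with a slope of 0.54, had its lowest value of 1935 CPM in the same embryo 24 and its highest of 6617 CPM in the same embryo 26, and its interval ran from 0.853-fold to 1.87-fold. The gene ranked 2, with a slope of 0.53, was also lowest in embryo 24, at 17585 CPM, and its highest value of 33513 CPM lay in omega-3 embryo 15. Its interval was narrower, from 0.862-fold to 1.39-fold. The gene ranked 5 had a slope of -0.08 that did not pass (edgeR adjusted p = 0.304). Its interval, from 0.730-fold to 1.28-fold, was the next widest after ranks 3 and 10. The genes ranked 4 and 6 rose with size (slopes 0.12 and 0.17, edgeR adjusted p = 0.0468 and 0.0344). Their intervals ran from 0.794-fold to 1.12-fold and from 0.783-fold to 1.14-fold. The gene ranked 7 fell with size (slope -0.09, edgeR adjusted p = 0.0476), with an interval from 0.767-fold to 1.03-fold. Whether width and slope are related was not tested.

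**Figure D4:**
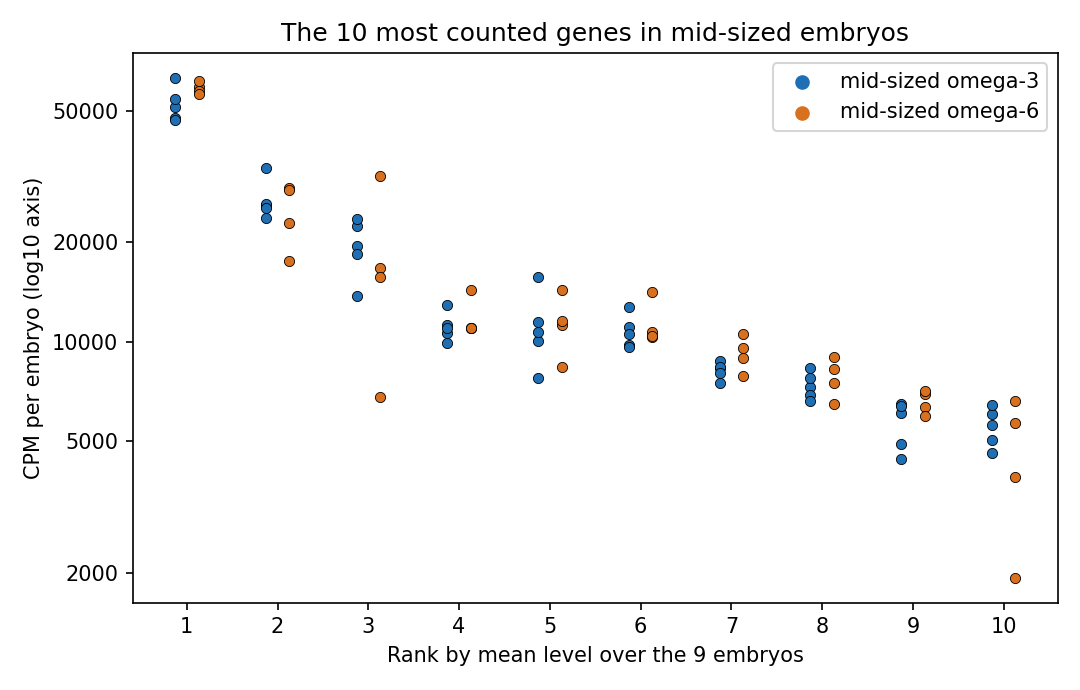
Level of each of the 10 most counted genes in each mid-sized embryo (vertical log10 axis, CPM), by rank of the mean level over the 9 embryos. Blue points are omega-3 (n = 5) and orange points omega-6 (n = 4). The diets overlap at every rank, and the widest spread among omega-6 embryos is at rank 3, from 6795 to 31703 CPM.

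The genes with the smallest p in each direction were named by rule, 2 higher and 2 lower in omega-3. None passed (edgeR adjusted p = 0.997 for each) and the choice favours genes whose groups separate, so their values describe these embryos. ENSBTAG00000003404 was a very low gene, with 15, 19, 17, 12 and 18 counts in omega-3 embryos 2, 3, 8, 15 and 17 and 2, 3, 7 and 4 counts in omega-6 embryos 23, 24, 26 and 28. Every omega-3 embryo lay above every omega-6 embryo, with means of 0.603 ± 0.106 (SD, n = 5) and 0.17 ± 0.10 CPM (n = 4). Its log2 fold change was 1.79 ± 0.36 (SE), a 3.46-fold difference. ENSBTAG00000018394 measured 2.26, 2.59, 3.82, 2.63 and 2.58 CPM in omega-3 and 1.10, 1.61, 0.76 and 1.12 CPM in omega-6, in the same order of embryos. These groups did not overlap either, and the log2 fold change was 1.28 ± 0.27 (SE), or 2.44-fold.

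Both genes that were lower in omega-3 differed by little and varied little. ENSBTAG00000019229 measured 106, 105, 99.8, 99.1 and 101 CPM in omega-3 and 116, 133, 136 and 126.3 CPM in omega-6. Omega-3 embryos stood close together, below every omega-6 embryo. The log2 fold change was -0.33 ± 0.07 (SE), so that omega-6 was 1.26-fold higher. ENSBTAG00000008812 measured 12.8, 11.8, 12.03, 11.1 and 12.6 CPM in omega-3 and 16.6, 14.6, 18.5 and 15.3 CPM in omega-6, again without overlap. Its log2 fold change was -0.44 ± 0.10 (SE), with omega-6 1.35-fold higher.

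The small embryos, which had no part in choosing these 4 genes, were read next. ENSBTAG00000003404 had a median of 0.207 CPM in small omega-3 (n = 4) and 0.211 CPM in small omega-6 embryos (n = 7), and had too few counts to be tested there. ENSBTAG00000018394 leaned the other way, at 1.01 ± 0.33 CPM (SD) in small omega-3 and 1.34 ± 0.52 CPM in small omega-6 (log2 fold change -0.22 ± 0.38, SE, edgeR adjusted p = 0.846). ENSBTAG00000019229 did so too, at 92.6 ± 23.5 and 75.6 ± 20.9 CPM (0.28 ± 0.25, SE, adjusted p = 0.767). Its lowest values among small embryos were 44.8 and 53.2 CPM in omega-6 embryos 25 and 22 and 59.8 CPM in omega-3 embryo 14. Of the 3 genes tested there, only ENSBTAG00000008812 kept its direction, at 12.5 ± 3.08 CPM in small omega-3 and 15.9 ± 4.69 CPM in small omega-6 (-0.51 ± 0.21, SE, unadjusted p = 0.034, adjusted p = 0.765). Small omega-6 embryo 22 stood at 26.2 CPM and the others at 12.3 to 15.3 CPM, against 8.3 to 15.5 CPM in small omega-3. In the 6 long omega-3 embryos ENSBTAG00000008812 measured 10.3 to 22 CPM, a range that covered both mid-sized groups.

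**Figure D5:**
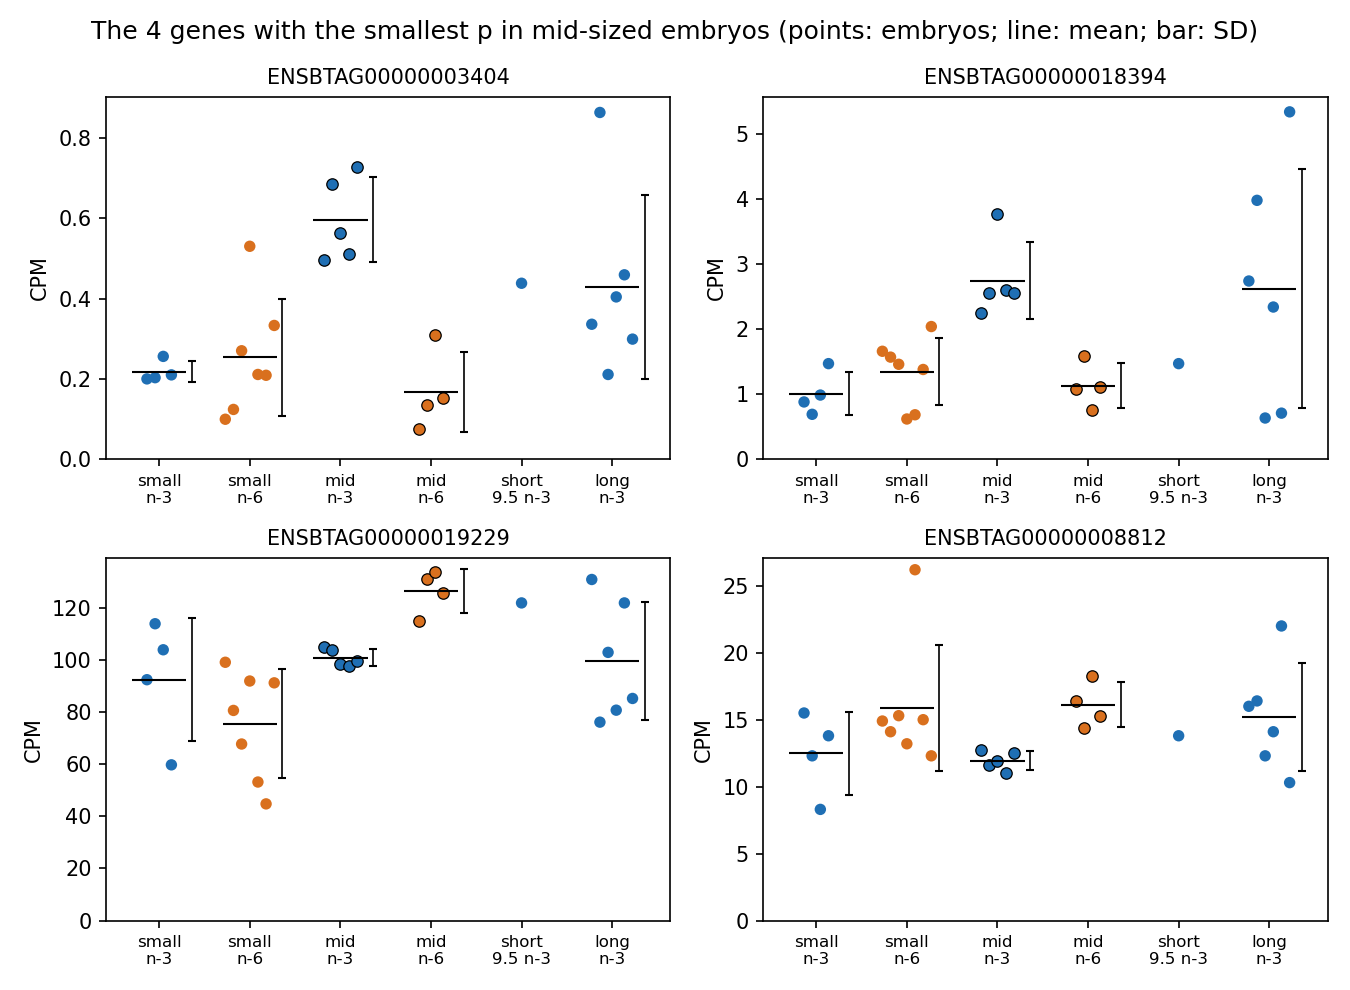
Level in each of the 27 embryos (CPM scaled over all 27, each panel from 0) of the 4 genes with the smallest p between diets in mid-sized embryos. Points are embryos, blue for omega-3 (n-3) and orange for omega-6 (n-6), outlined where mid-sized, with the mean as a line and the SD as a bar beside it; the short embryo of size 9.5 stands alone. The mid-sized groups, in which the genes were chosen for a small p, do not overlap in any panel, as that choice favours. The small groups, which had no part in the choice, overlap in all 4.

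Whether the diet difference in mid-sized embryos was other than in small ones was tested as an interaction in 20 embryos. Of 12034 genes, 0 passed by edgeR (0%), and 587 (4.88%) had an unadjusted p below 0.05. By DESeq2 there were 3 calls. Their differences, mid-sized minus small, were -6.62, 6.04 and 1.12 on the log2 scale (DESeq2 adjusted p = 0.00223, 0.0045 and 0.0135; edgeR adjusted p = 0.748, 0.813 and 0.813). The first had 51.1% of its summed CPM in small omega-3 embryo 12 alone. The second had 23.6% in mid-sized omega-3 embryo 3, with a median of 0.878 CPM. The third was spread evenly, with 9.31% in its highest embryo and a median of 7.88 CPM. Across 11497 genes the diet fold changes of the mid-sized and the small embryos, which share no embryo, correlated at r = -0.111. Of 351 genes at an unadjusted p below 0.05 in mid-sized embryos, 35.9% had the same sign in small ones, against 49.5% of all genes. The diets differed in size in the opposite direction there: mean log2 size was 0.38 ± 1.21 (SD, n = 4) in small omega-3 and 1.21 ± 0.41 (n = 7) in small omega-6. Small omega-3 embryo 14 had a size number of 0.4, and the others of that group ran from 1.3 to 2.6. With log2 size in both fits r was -0.01 and the same-sign share of all genes 53.4%. Whether size has a part in these signs was not tested. Diet among small embryos called 0 of 11806 genes (0%; 437, or 3.7%, at an unadjusted p below 0.05), and 66.2% of genes were bounded within 2-fold there, against 89.9% in the mid-sized embryos.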

How the data were processed

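RNA from single day 15 cattle embryos was sequenced as stranded poly(A) libraries with single reads of 100 bp, per the labels' protocols. Per the submitters' processing notes, reads were handled with STAR and featureCounts (no versions named); no source used here gives the build, annotation or strand setting. The authors' deposited values are raw read counts for 19994 Ensembl identifiers per embryo, and how reads shared by near-identical genes were counted is not stated.

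The test was edgeR 4.0.16 under R 4.3.3 (filterByExpr with minimum count 10, minimum total 15 and minimum proportion 0.7 on the 2 diet groups, TMM scaling, quasi-likelihood F-test, Benjamini-Hochberg adjustment, calls below 0.05) on the 9 mid-sized embryos, with diet and letter as terms. SE came from dividing the size of each log2 fold change by the root of its F. A gene was bounded when its 95% interval, from the t quantile at the fit's degrees of freedom (median 10.4), lay within -1 to 1 on the log2 scale; 1 gene had no interval and counted as not bounded. The interaction used the 4 mid-sized and small groups with the letter. Log2 CPM used a prior count of 2. Differences in means were tested by exact permutation and correlations by 100000 permutations. The fits and intervals were also run on simulated counts that held no effect of size or letter, and the outcome is not given here. The identified genes were those with the 2 smallest p-values in each direction. Alternatives included DESeq2 1.42.0 and limma 3.58.1. The gene lists prepared beforehand could not be used, since no identifier had a name. The size window, comparisons and rules were chosen with earlier results of these data known. Embryo numbers differ between groups, so no embryos were paired.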

Additional observations from a re-analysis of the deposited data

Results flagged for a closer look

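In 6 of 44 sets (a measure or gene in 1 diet group) 1 embryo stood apart from its group by a gap large for the group's range. Independent, normally distributed values meet this rule in about 1 set in 20. The 44 sets are related to each other and include genes chosen for a small p, so the 6 cannot be set against that rate. Omega-6 embryo 26 stood apart in size number (7.7) and in the genes ranked 4 and 6 by level (14303 and 14103 CPM). Omega-3 embryo 15 did so in the share of its 10 most counted genes (17.49%) and in the gene ranked 2 (33513 CPM). Omega-3 embryo 8 did so in ENSBTAG00000018394 (3.821 CPM); the other omega-3 embryos also lay above every omega-6 embryo.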

How the results depend on the processing

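The diet comparison of mid-sized embryos called 0 genes under the 7 alternatives of scaling, filter, tool, covariates and samples. These were RLE size factors, no filter on low counts, DESeq2, limma-voom, no letter, log2 size added, and all 27 embryos in one model. At an unadjusted p below 0.05 they gave 113 (0.976%, all 27 embryos) to 548 genes (4.73%, limma-voom), against 355 (3.07%). Leaving out each embryo in turn gave 0 to 1 calls; the single call came without omega-6 embryo 26, for a gene with a mean of 24.7 CPM (log2 fold change 1.99, edgeR adjusted p = 0.00237, against 1.34 and 0.997 with all 9). The number at an unadjusted p below 0.05 was then 817 (6.99% of those tested). It was 602 (5.22%) without embryo 17 and 545 (4.67%) without embryo 23, and ran from 240 (2.08%) over the 9 fits. Genes bounded within 2-fold numbered 9517 to 10514 under the alternatives other than the simultaneous interval, which left 4281 because it is wider by construction, and 9968 to 10251 with each embryo left out. Without the filter 65.6% of 16019 genes were bounded.

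The interaction with size window called 3 genes (0.0249%) with DESeq2 and 0 under the other alternatives. With log2 size added, chosen after seeing the data, 298 genes (2.48%) had an unadjusted p below 0.05. The diet difference along the first component was 2.55 in place of -8.99 without omega-6 embryo 24, and ran from -21.8 to 2.55 with each embryo left out. The difference in the share of the 10 most counted genes was 0.303 in place of -0.347 without embryo 26 and ran from -0.828 to 0.303. The cause was not tested in either. The differences in total counts and in genes detected at equal depth ran from 1380000 to 3340000 and from -103 to -43.2. With the size genes chosen without embryo 7, an alternative added after seeing the data, 82.2% of rising genes were higher and 79.1% of falling genes lower in omega-3. The size score difference ran from 0.154 to 0.469, and the log2 size difference from 0.0326 to 0.31, with each embryo left out. The 4 named genes kept their direction in every fit of the mid-sized comparison, with adjusted p of at least 0.0883. They were chosen in these same embryos, so that outcome was largely set by the choice. In the small embryos ENSBTAG00000018394 and ENSBTAG00000019229 leaned the other way. No paired analysis was possible because embryo numbers do not repeat across groups. Of the genes not bounded within 2-fold, 572 lay under 1 CPM and 503 at 1 to 10 CPM; how far depth and how far spread between embryos set this was not tested.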
